A study of Drosophila melanogaster with 48 samples.

Results

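The genes described here encode nuclear parts of the mitochondrial respiratory chain in Drosophila melanogaster: subunits of complex I (symbols beginning ND-), complex III (UQCR-), complex IV (COX and a digit) and ATP synthase, or complex V (ATPsyn). A gene was a member if a probe set matched it alone and its current symbol, found through the gene ID, began in one of these ways. That gave 66 genes of 11894 with such a probe set. Of the 66, 48 are subunit genes (27 of complex I, 4 of complex III, 7 of complex IV and 10 of complex V). The other 18 are paralogs whose symbol ends in L, set apart because such copies are known for use in the testis (5, 2, 7 and 4 in the same complexes). The probe set with the highest mean signal stood for each gene, and all 66 passed the filter on low signal. A further 17 genes whose symbols follow the rule had no probe set of their own and were not analysed here.

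Complexes I, III and IV pass electrons from NADH to oxygen and pump protons across the inner mitochondrial membrane, and ATP synthase uses the returning protons to make ATP. Most subunits are encoded in the nucleus, and their genes are commonly used together, at high levels in tissues with a heavy demand for ATP such as flight muscle. Many of these genes in flies have duplicate copies that are used mainly in the testis, where mitochondria are reshaped to build the sperm tail.

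The study hybridised labelled RNA of whole adult flies to 48 Affymetrix arrays. Larvae of 8 numbered lines (380, 158, 304, 362, 379, 774, 786 and 859) grew on medium enriched with tomato paste, on medium with 9% ethanol, or on plain cornmeal-molasses medium, called tomato, ethanol and standard medium below. After eclosion all flies lived on standard medium, so media are compared for what larval food left in the adult, and lines for how far they differ. Each of the 24 combinations of line and medium had 2 arrays, and the labels give neither sex nor the origin of the lines, and an age, 3 to 5 days, for only 4 arrays. Nothing says that the 2 arrays came from separate cultures, so p-values on their spread may measure technical differences only.

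Values are log2 signals, and an index is the mean log2 signal of a list of genes on an array. Markers of muscle, testis, accessory gland and yolk had 0 values at the floor, which alone does not show expression. The lowest log2 signal of any marker on any array was 11.73 for yolk, 7.29 for accessory gland and 8.21 for muscle. Yolk markers, of females, and accessory gland markers, of males, thus stayed above 5.9, the lowest mean signal tested, on every array. For testis the lowest was 5.02, below that level. The eggshell index lay below that of every standard array, the lowest of which was 12.06, on 10 tomato and 5 ethanol arrays, down to 3.90. Titles of 11 tomato, 4 ethanol and 0 standard arrays have a hyphen before the array number and no spaces, where the other titles have spaces, a spelling treated as a possible batch. Both tomato arrays of line 380 have the hyphen and its other 4 arrays do not. Within the 5 tomato combinations with 1 array of each spelling, 43.1% of all 11261 tested probe sets differed (limma, adjusted p under 0.05). Of the 48 subunit genes, 6 did, all higher on the hyphen array (ND-ASHI, ND-20, ND-B14.5A, ND-B14, ND-B22 and ATPsynbeta), and of the 18 L paralogs 0 did, with 17 of 18 higher. Median signal ran from 85.9 to 163.0 between arrays, the lowest being array 1 of line 380 on standard medium.

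Most subunit genes gave strong signals and most L paralogs weak ones. The median log2 signal was 12.80 over the 48 subunit genes, with a range of 5.99 to 14.29. Over the L paralogs it was 8.19, reaching 13.05 in COX7AL2, which was above the subunit median. Signals of different probe sets depend on their probes, so these ranges describe how well the genes were measured and not which gene is more abundant. The brightest probe set of each complex belonged to ND-MLRQ, UQCR-14 (a small subunit of complex III), COX4 (the largest nuclear subunit of complex IV) and ATPsynbeta, the catalytic subunit of ATP synthase. UQCR-11 at 5.99, ND-B12 at 7.16 and ND-B8 at 8.25 were the only subunit genes below a mean of 9. The L paralogs lay on chromosome arms 2L (4), 2R (5), 3L (5) and 3R (4), with 0 of 18 on the X, where 10 of the 48 subunit genes (20.8%) and 15.7% of all 11894 genes lie.

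Line was where these genes differed. Averaged over media, 46 of 48 subunit genes and 16 of 18 L paralogs differed between the 8 lines (limma F-test, adjusted p under 0.05), against 61.8% of all tested probe sets. The exceptions were ND-51 (adjusted p = 0.058), ND-B12 (0.684), ND-51L2 (0.185) and ATPsynbetaL (0.433). The range between the highest and lowest line mean had a median of 0.74 over the subunit genes, against 0.75 over all tested probe sets. For the L paralogs it was 1.03.

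Line 380 had the lowest mean of the 8 lines in 47 of 48 subunit genes, where it was lowest in 23.9% of all tested probe sets. Line 304 was lowest for ND-B12. The highest mean fell to line 379 in 27, line 362 in 17, line 774 in 3 and line 158 in 1 of the 48. Line 380 minus the mean of the other 7 lines had a median of -0.48 over the subunit genes, against 0.01 over all tested probe sets. By complex, the medians were -0.55 for complex I, -0.45 for complex III, -0.39 for complex IV and -0.40 for complex V. Scaling changed the counts: with each array centred on its median, line 380 was lowest in 33 of 48 and the median was -0.32, while that of all tested probe sets moved to 0.17. After quantile normalization it was lowest in 44 of 48, with a median of -0.32, against 0.02 over all.

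**Figure D1:**
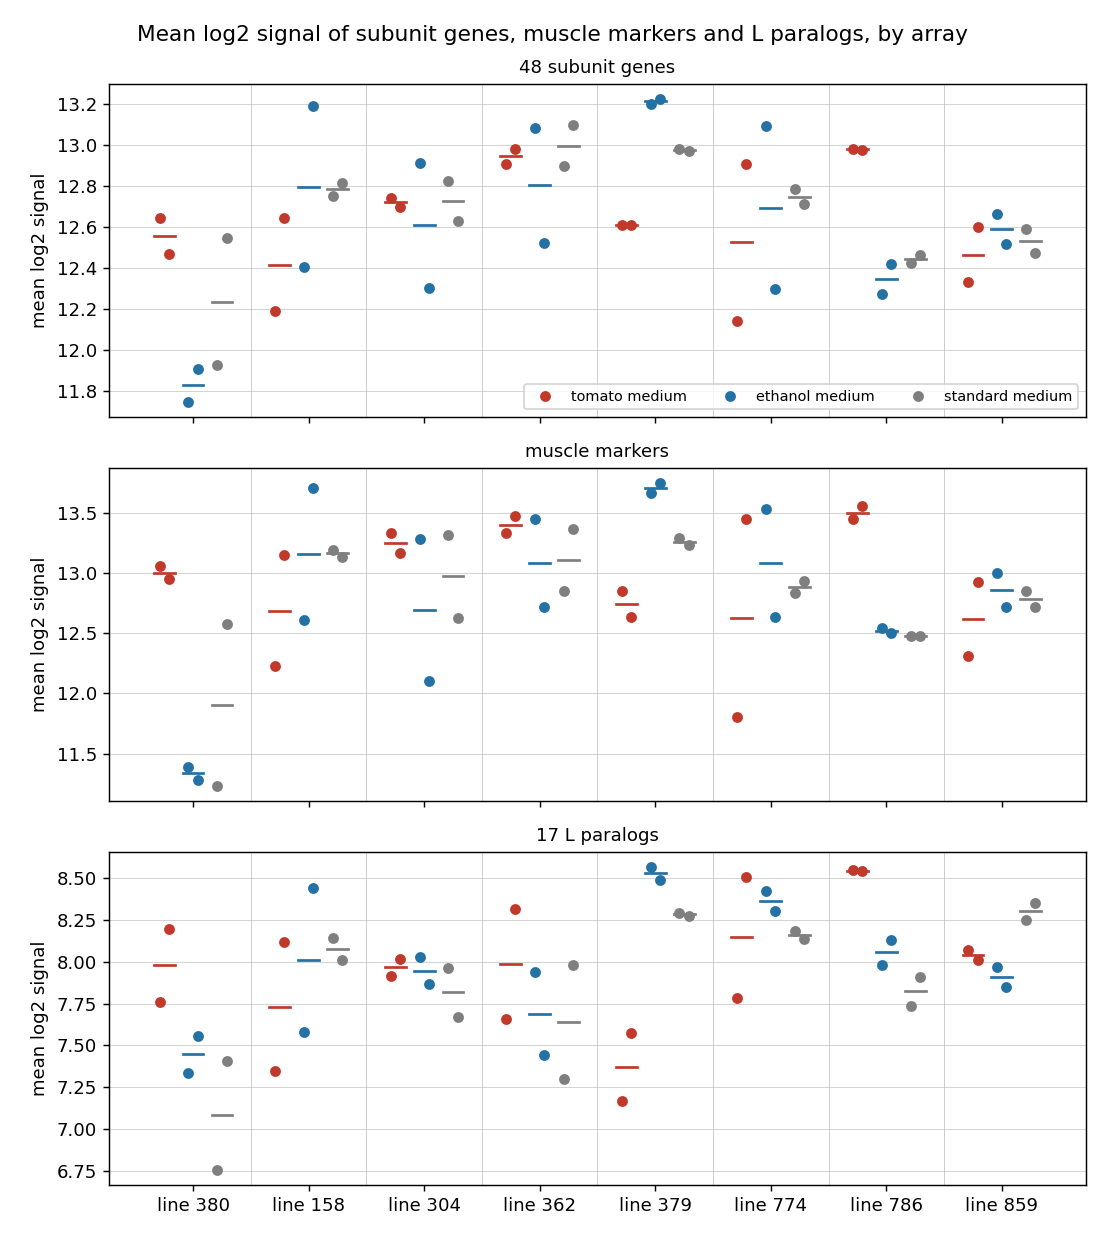
Mean log2 signal on each array of the 48 subunit genes (top), of the muscle markers (middle) and of 17 L paralogs (bottom; COX7AL2 is left out), by line and larval medium. Points are arrays and bars are means of the 2 arrays of a combination. The ethanol arrays of line 380, at 11.75 and 11.91, and its standard array at 11.92 hold the lowest subunit indices of the 48.

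The low level of line 380 was seen on 3 of its 6 arrays. The subunit index was 12.64 and 12.47 on its tomato arrays, 11.75 and 11.91 on its ethanol arrays, and 11.92 and 12.55 on its standard arrays. Over the 42 arrays of the other lines it ran from 12.14 to 13.22 with a median of 12.70. The 3 low arrays thus lay below all 42, and the other 3 within their range. On ethanol medium line 380 was lowest in 46 of 48 subunit genes, on standard medium in 40 and on tomato medium in 5, where line 158 was lowest in 32. Averaged over genes, line 380 had 12.55 on tomato medium, inside the 12.42 to 12.98 of the other lines.

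The muscle index, over the 13 of 17 muscle markers that were tested, was low on those same arrays. It was 13.06 and 12.95 on tomato, 11.39 and 11.28 on ethanol and 11.23 and 12.58 on standard medium in line 380, against 11.80 to 13.75 in the other lines. Line 380 was lowest in 13 of 13 of these markers, against 23.9% of all tested probe sets, and 10 of 13 differed between lines, against 61.8%. The nervous system index, over 4 tested markers, was also lowest in line 380, at 7.71 against 7.91 to 8.46 in the other line means. Line 380 was lowest in 2 of these 4 markers. The flight muscle actin Act88F was lower by 1.32 in log2 and flightin, fln, by 1.66 in line 380 than in the mean of the other lines. The part of muscle markers in the line differences was not tested directly, and in whole-body RNA fewer muscle cells and less RNA per cell cannot be told apart. With the muscle index as a covariate, 20 of 48 subunit genes and 16 of 18 L paralogs still differed between lines, against 66.1% of all probe sets. Without the 4 arrays whose muscle index was under 12, 3 of them from line 380, 14 and 13 did, against 46.5%. Without line 380 altogether, 8 subunit genes and 11 L paralogs did, against 42.5%. With title spelling as a block the number was 63 of 66, against 79.2%.

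**Figure D2:**
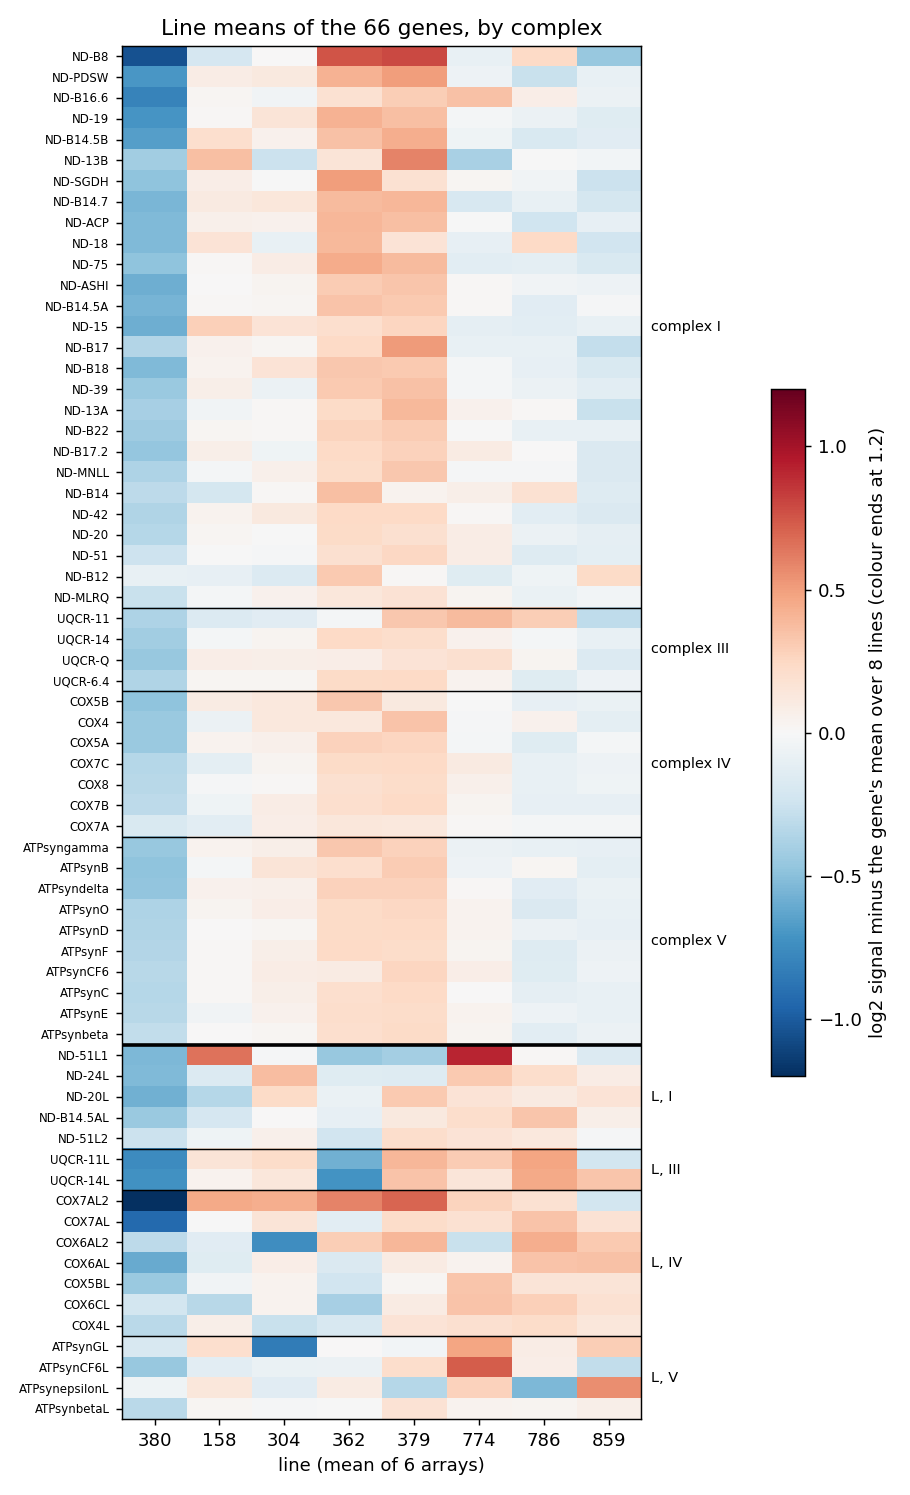
Line means (6 arrays each) of the 66 genes after subtracting each gene's mean over the 8 lines, with subunit genes above the thick rule and L paralogs below it, and line 380 in the first column. Blue is lower and red higher, and the colour ends at a log2 difference of 1.2. In the subunit block the first column is blue and the columns of lines 362 and 379 are red in nearly every row, while the L paralogs are mixed.

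All 10 of the called subunit genes with the widest range of line means belong to complex I, and for all 10 line 380 was lowest. ND-B8, an accessory subunit, had the widest. In line 380 it read 7.60 and 7.38 on tomato, 6.47 and 7.07 on ethanol and 7.05 and 7.63 on standard medium, and in the other 42 arrays it ran from 7.16 to 9.71 with a median of 8.39. The 6 arrays of line 380 sat at the bottom of that range and overlapped it. Its line means ran from 7.20 in line 380 to 9.04 in line 379, a range of 1.84 (adjusted p = 6.29e-08 by limma's F-test), and 1.24 without line 380.

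In ND-B16.6, another accessory subunit, the gap between line 380 and the next line was 0.632 of the whole range of line means. It read 12.11 and 11.84 on tomato, 11.26 and 11.33 on ethanol and 10.94 and 11.68 on standard medium in line 380, and in the other lines from 11.81 to 13.23 with a median of 12.42. Only the tomato arrays of line 380 reached the others. The mean of line 380 was 11.53 ± 0.43 (SD, n = 6), and the other line means lay within 0.42 of each other, from 12.25 to 12.68 (adjusted p = 0.0001 over the 8 lines, 0.222 without line 380). On tomato medium alone line 380 was lower than the mean of the other lines by 0.44 in log2, on ethanol medium by 1.19 and on standard medium by 1.12.

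The next in range were ND-PDSW at 1.21, ND-19 at 1.12, ND-B14.5B at 1.10 and ND-13B at 1.01, all accessory subunits. ND-13B differed in another way: line 774 was nearly as low as line 380, at 11.26 and 11.24, and its range was still 0.99 without line 380. ND-SGDH ranged over 0.98, ND-B14.7 over 0.94, ND-ACP, the mitochondrial acyl carrier protein, over 0.93 and ND-18 over 0.93. Adjusted p for the 10 ran up to 0.00298, and up to 0.0137 when any 1 array was left out, so each kept its call. With the muscle index as a covariate 9 of the 10 kept it and ND-19 did not (adjusted p = 0.111). Without line 380, ND-B8, ND-PDSW, ND-13B, ND-SGDH and ND-18 kept theirs.

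In complex V the range of line means lay between 0.53 and 0.78 for all 10 genes, all 10 were called, and line 380 was lowest in each. ATPsynbeta read 14.35 and 14.28 on tomato, 13.53 and 13.73 on ethanol and 13.72 and 14.38 on standard medium in line 380, and from 13.80 to 14.84 with a median of 14.36 in the others. The 3 lower arrays of line 380 lay below all others, and the difference of line 380 from the mean of the other lines was -0.34 (adjusted p = 0.022). That call was lost without array 1 or 2 of line 380 or array 2 of line 379 on ethanol medium (adjusted p = 0.0852, 0.0609 and 0.0551), and 0 of the 10 genes of complex V were called without line 380. COX4 was 13.50 ± 0.32 in line 380 and between 13.82 and 14.28 in the others (adjusted p = 0.000352, and 0.0389 without line 380). COX7A had the narrowest range of all 66 genes at 0.32. UQCR-14 ranged over 0.65 (adjusted p = 0.00429), and ND-MLRQ over 0.44 (adjusted p = 0.0199, and 0.0964 without array 1 of line 380 on ethanol medium).

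Other probe sets of the same genes gave similar orders. ATPsynbeta, ATPsyngamma, COX7B, COX7C, ND-ACP and ND-B17 had 7 more tested probe sets between them, and line 380 had the lowest mean in all 7, with adjusted p between 0.000427 and 0.016. The sizes differed most for COX7B, where line 380 minus the mean of the others was -0.36 by the brighter probe set and -0.71 by the next. One more, faint probe set of COX7B did not pass the signal filter.

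**Figure D3:**
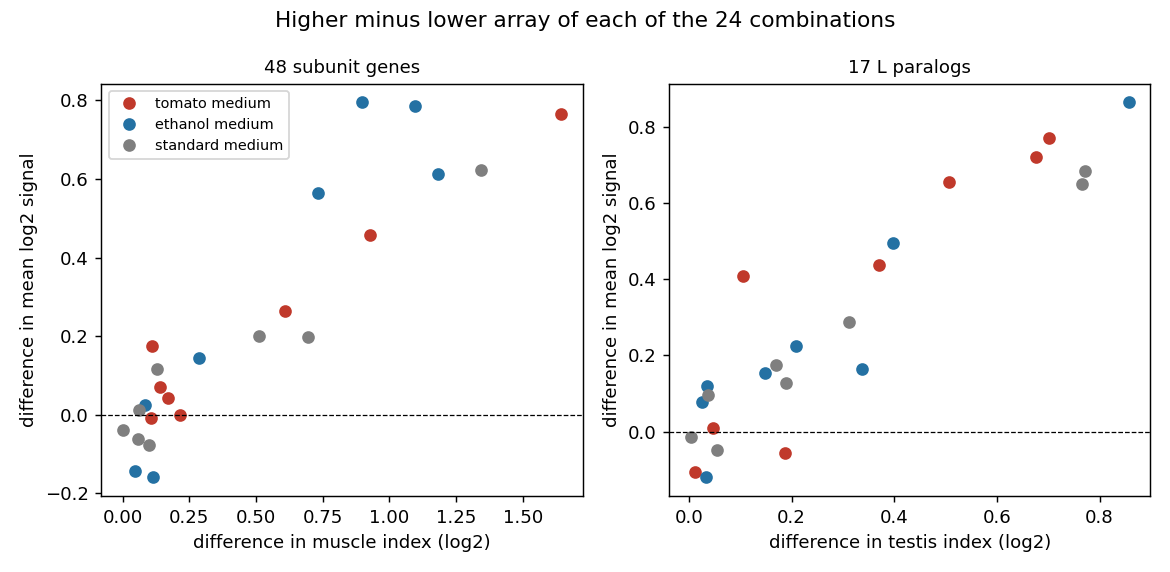
Difference between the 2 arrays of each of the 24 combinations, each taken as the array with the higher marker index minus the array with the lower. Left: mean of 48 subunit genes against the muscle index. Right: mean of 17 L paralogs against the testis index. Points are combinations, coloured by medium. In the 10 combinations whose arrays differ by 0.51 or more in muscle index, the subunit difference is 0.20 to 0.80.

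Arrays of the same line and medium often disagreed, and then nearly all subunit genes moved together. In 10 of the 24 combinations the muscle index of the 2 arrays differed by 0.51 to 1.64. In all 10 the subunit index was higher on the array with more muscle signal, by 0.20 to 0.80, and 44 to 48 of the 48 genes shared that direction. Between 41.4% and 54.2% of all tested probe sets did so in the same pairs. The widest gaps were in line 774 on ethanol medium (13.09 and 12.30), line 158 on ethanol medium (13.19 and 12.40), line 774 on tomato medium (12.91 and 12.14) and line 380 on standard medium (12.55 and 11.92). In the other 14 combinations, with muscle differences of at most 0.29, the subunit index was higher on the array with more muscle signal in 7. Other tissue indices moved as well in the 10 combinations. On the array with more muscle signal the nervous system index was higher in each, with 8.61 and 7.31 in line 158 on ethanol medium. The testis index was higher there except in line 774 on ethanol medium. The eggshell index was lower there except in line 380 on standard and line 304 on ethanol medium. The part of each tissue was not tested.

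L paralogs shared the direction of the testis markers more often. The index of 17 of them was higher on the array with the higher testis index in 19 of 24 combinations. Gene by gene, COX4L and COX5BL moved with the testis index in 22 of 24 combinations and COX6CL in 21. COX7AL2 moved with the testis index in 16 and with the muscle index in 16. The median was 18.5 over the 18 paralogs and 16 over the subunit genes, with 13 over all tested probe sets. The subunit genes had a median of 18 of 24 for the muscle index, the paralogs 15 and all tested probe sets 12. These counts describe the arrays; both indices can move together on an array, and no test was made on them.

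Line 380 was also the lowest in most L paralogs. It had the lowest mean in 14 of 18, against 23.9% of all tested probe sets, line 304 in COX6AL2 and ATPsynGL, line 362 in COX6CL and line 786 in ATPsynepsilonL. Centred on array medians, line 380 was lowest in 9 of 18, and after quantile normalization in 11. The highest mean fell to line 786 in 6, line 774 in 5, line 379 in 4, line 859 in 2 and line 304 in 1. Lines 786 and 859, which led 8 of the 18 paralogs, were highest in 0 of the 48 subunit genes. The testis index averaged 10.43 in line 786, 10.63 in line 774 and 9.74 in line 380, and its part in these differences was not tested directly. With the testis index as a covariate 15 of 18 paralogs differed between lines, against 89.3% of all tested probe sets.

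COX7AL2, a paralog of the complex IV subunit COX7A, differed most of all 66 genes. In line 380 it read 11.57 and 11.44 on tomato, 9.53 and 9.97 on ethanol and 10.09 and 11.32 on standard medium, and on the other 42 arrays from 12.41 to 14.05 with a median of 13.52. The 6 arrays of line 380 lay below all 42 others, which held for 0.391% of all tested probe sets and for no other gene of the 66. The mean was 10.65 ± 0.89 in line 380 (SD, n = 6), and the other line means ran from 12.83 in line 859 to 13.75 in line 379, so that line 380 was 6.70-fold below their mean (adjusted p = 4.3e-12 by limma's F-test). The fold was 3.62 on tomato, 12.3 on ethanol and 6.77 on standard medium. Both tomato arrays of line 380 have the hyphen in their titles, and with title spelling as a block the adjusted p over the lines was 6.01e-12. Their muscle index, at 13.06 and 12.95, lay within the 11.80 to 13.75 of the other lines. On the ethanol arrays of line 380 the muscle index was 11.39 and 11.28, and on the standard arrays 11.23 and 12.58. Within line 380 COX7AL2 was thus lower on the arrays of low muscle index. With the muscle index as a covariate the adjusted p was 6.69e-16, and between the other 7 lines alone it was 0.00499. The part of muscle content and of title spelling in the low signal of line 380 was not tested. Of the 11261 tested probe sets, 28 were at least as far below the other lines in line 380. The probe set is of a type that can match several transcripts, so the signal may not be of this gene alone. Probe sets of this type also stood for other members, among them ND-PDSW, ND-19 and ND-B14.7.

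Of the genes annotated next to COX7AL2, CG10874, the nearest tested one on one side, was at 10.11 in line 380 and 9.65 in the mean of the others (adjusted p = 0.00401). On the other side CG31668 and CG33124 did not pass the signal filter, at 3.82 and 3.93 in line 380 and 4.21 and 4.31 in the others. CG15385, the nearest tested one there, was at 5.88 in line 380 and 6.10 in the others (adjusted p = 0.775). Signals this low leave little room for a fall of the size seen for COX7AL2. Beyond them Uch, with a stronger signal, was at 11.77 in line 380 and 11.53 in the others (adjusted p = 0.0613 by limma's F-test). These neighbours were looked up after the values of COX7AL2 were seen, and only their order in the annotation was used.

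COX7AL, the other paralog of COX7A, was also low in line 380. It read 8.20 and 8.68 on tomato, 7.80 and 7.80 on ethanol and 7.35 and 7.95 on standard medium in line 380, and 7.97 to 9.75 with a median of 9.05 elsewhere. Its mean was 2.10-fold lower in line 380 than in the mean of the others (adjusted p = 4.05e-05), and without line 380 it was not called (adjusted p = 0.353). COX7A itself had means of 12.92 in line 380 and 12.97 to 13.23 in the other lines. Line 380 was lowest in all 3 genes, with differences from the mean of the others of -2.74, -1.07 and -0.21 in log2.

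**Figure D4:**
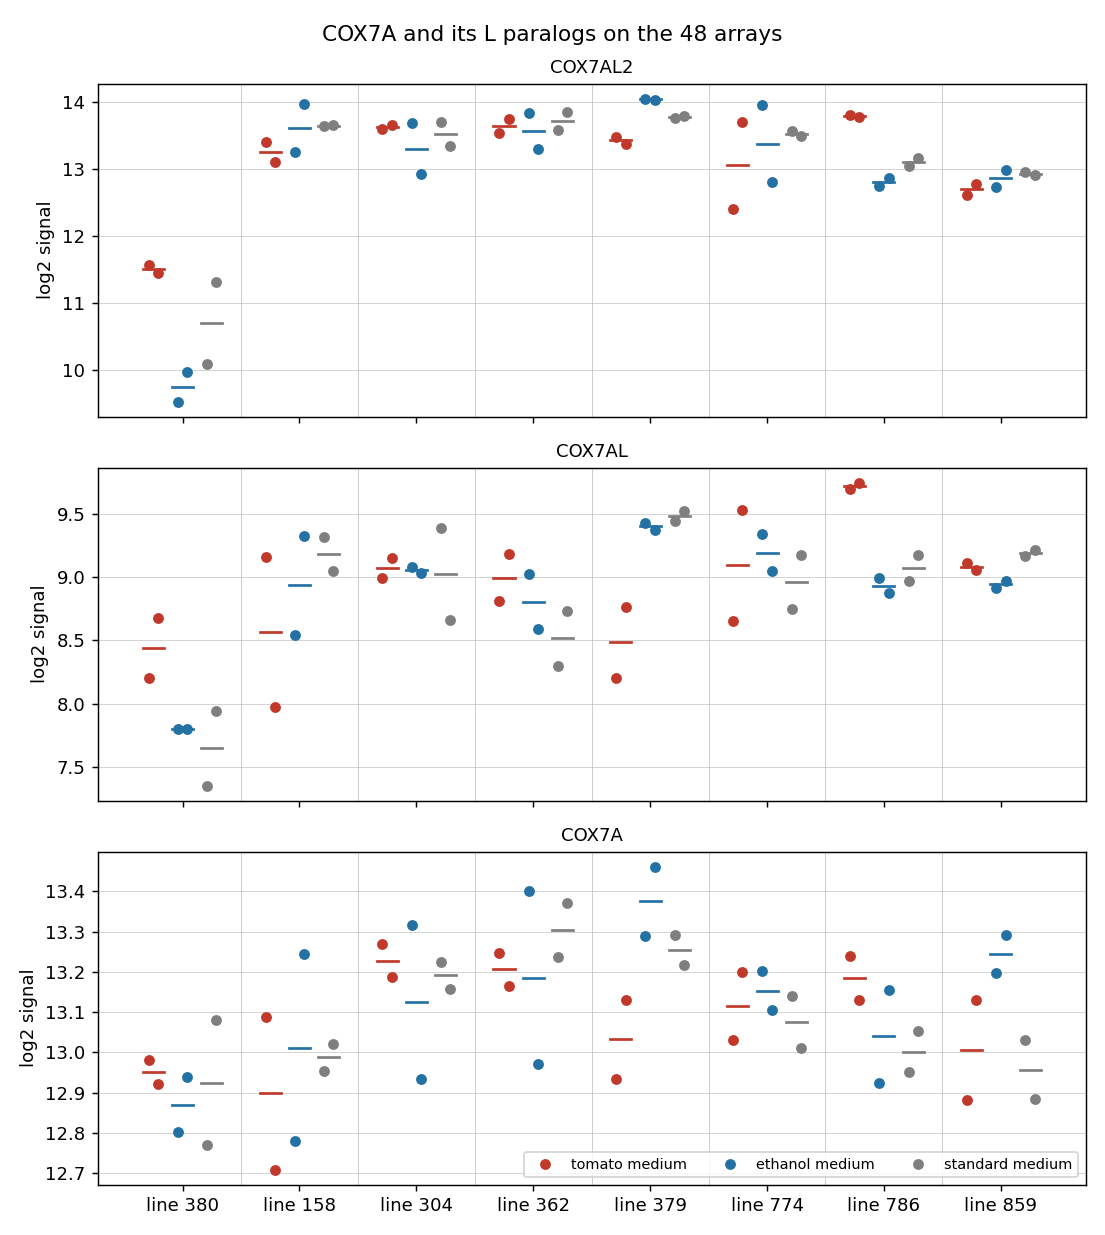
Log2 signal of COX7AL2, COX7AL and COX7A on the 48 arrays by line and larval medium, each panel with its own axis. Points are arrays and bars are means of the 2 arrays of a combination. The 6 arrays of line 380 read 9.53 to 11.57 for COX7AL2, and every other array reads 12.41 or more.

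The remaining L paralogs fell into those that were low in line 380 and those with a low line of their own. In complex III, UQCR-11L and UQCR-14L were low in lines 380 and 362. UQCR-11L had means of 7.82 in line 380 and 7.99 in line 362, and UQCR-14L of 6.75 and 6.76, while the other 6 lines ran up to 9.04 and 7.93. Both kept their calls without line 380 (adjusted p = 0.000536 and 0.00148). Their partners UQCR-11 and UQCR-14 were also lowest in line 380, and without it UQCR-11 kept its call (adjusted p = 0.0107) and UQCR-14 did not (0.201). ATPsynGL was lowest in line 304, with arrays from 7.19 to 8.07 and a mean of 7.73, and the other line means ran from 8.37 in line 380 to 9.04 in line 774 (adjusted p = 2.89e-06). COX6AL2 was likewise lowest in line 304, at 7.14, and highest in line 786, at 8.32 (adjusted p = 1.07e-05).

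Smaller ranges were seen for ATPsynCF6L (1.18), COX6AL (0.96), ND-24L (0.90), ND-20L (0.89), ND-B14.5AL (0.77), COX5BL (0.77), COX6CL (0.74) and COX4L (0.55), all called. ND-20L and COX5BL lost their calls without array 1 of line 380 on standard medium (adjusted p = 0.0522 and 0.0679), and ND-B14.5AL without array 1 of line 380 on ethanol medium (0.0507). ND-51L1 had a range of 1.46 but was faint, with arrays from 2.38 to 7.39, and its call (adjusted p = 0.0417) was lost on leaving out any of 19 single arrays. ATPsynepsilonL ranged over 1.10 (adjusted p = 0.0296) and lost its call without array 1 of line 786 on standard medium (0.0832), array 2 of line 859 on standard medium (0.0584) or array 1 of line 859 on tomato medium (0.0557). ND-51L2 and ATPsynbetaL, also faint, had ranges of 0.46 and 0.49 and were not called. Of the 12 paralogs with a subunit gene of the same name among the members, 7 had a wider range of line means than that gene, and 2 shared its highest line.

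No member was called in a comparison of media. Tomato minus standard had 0 of 66 called, against 1.15% of all tested probe sets. Ethanol minus standard had 0 of 66, against 0.0%, and tomato minus ethanol 0 of 66, against 0.107%. At an unadjusted p under 0.05, limma gave 0, 1 and 0 of the 66 in the same order, against 21.2%, 5.58% and 6.72% of all tested probe sets. The subunit genes had a median difference of -0.05 for tomato minus standard (17 of 48 higher), -0.08 for ethanol minus standard (8 of 48 higher) and 0.03 for tomato minus ethanol (31 of 48 higher), where all tested probe sets had medians of -0.01, 0.00 and -0.02. All 7 subunit genes of complex IV and all 10 of complex V had lower means on tomato than on standard medium, none of them passing the test. The 18 L paralogs had medians of 0.07, 0.07 and 0.03, with 15, 13 and 10 higher. The 3 comparisons share arrays, so their values are not independent of each other. In the arrays whose titles have a space, the subunit medians were -0.19, -0.08 and -0.11 with 0 of 66 called in each, and without the 15 arrays of low eggshell index they were -0.23, -0.23 and -0.01, again with 0 called.

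**Figure D5:**
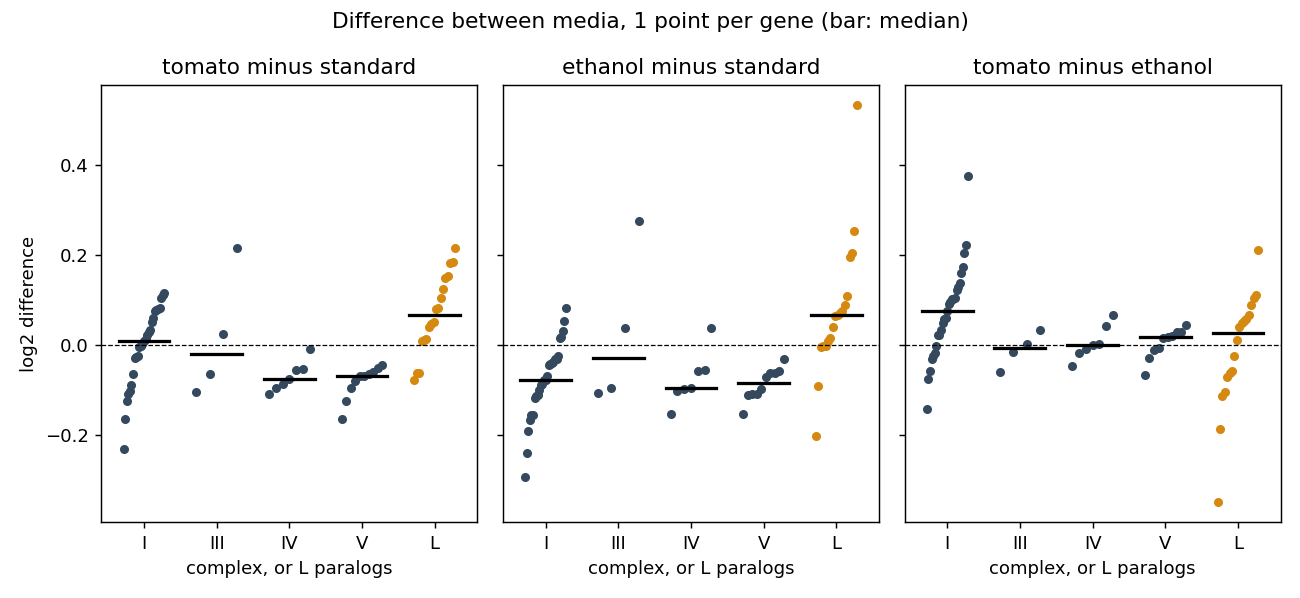
Log2 difference between media for each of the 66 genes, with 1 point per gene, by complex for subunit genes (I, III, IV, V) and together for L paralogs (L). Bars are medians and the dashed line is no difference. Points spread on both sides of 0, between -0.35 and 0.53, and 0 of 66 passed the test in any panel.

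The genes with the smallest p did not pass. For tomato minus standard these were UQCR-11, ATPsynB and ATPsynGL. UQCR-11 averaged 6.04 ± 0.23 on tomato and 5.83 ± 0.45 on standard medium (SD over 8 line means; adjusted p = 0.295), and was higher in 5 of 8 lines. ATPsynB, a stalk subunit of ATP synthase, averaged 13.55 ± 0.23 and 13.72 ± 0.25, a difference of -0.17 ± 0.11 (SE; adjusted p = 0.384). ATPsynGL averaged 8.64 ± 0.44 on tomato and 8.43 ± 0.57 on standard medium (adjusted p = 0.44), and the sign of its difference turned to -0.10 in the arrays whose titles have a space.

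For ethanol minus standard the smallest p were those of UQCR-11, ND-75 and ND-B12. UQCR-11 differed by 0.28 ± 0.12 (SE; adjusted p = 0.839 by limma) and was higher in 7 of 8 lines, at a mean signal close to the filter. ND-75, a core subunit of complex I that carries iron-sulfur clusters, differed by -0.24 ± 0.15 and was lower in 7 of 8 lines (adjusted p = 0.839), and ND-B12 by -0.29 ± 0.18 (0.841). For tomato minus ethanol, ND-B12 differed by 0.38 ± 0.18 (adjusted p = 0.75), ND-SGDH by -0.14 ± 0.10 (0.837) and ND-B14.5A by 0.22 ± 0.15 (0.837).

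Within single lines, where the difference was not tested gene by gene, the direction varied from line to line. Tomato minus standard had a median over the subunit genes of 0.55 in line 786 (46 of 48 higher) and 0.30 in line 380 (47 of 48 higher), but of -0.41 in line 158 (2 of 48 higher) and -0.35 in line 379 (1 of 48 higher). The muscle index of the same combinations differed by 1.02, 1.10, -0.48 and -0.52. Tomato minus ethanol ran from -0.65 in line 379 (1 of 48 higher) to 0.75 in line 380 (47 of 48 higher), with muscle differences of -0.97 and 1.67. The value of line 380 for tomato minus standard rested on 1 array. Without array 1 of line 380 on standard medium, the array of lowest median signal, its median was -0.0060 with 20 of 48 higher, and without array 2 it was 0.62. In line 158 the median was -0.18 without tomato array 2 (9 of 48 higher) and -0.60 without tomato array 3. The medians given for lines 786 and 379, and those for tomato minus ethanol in lines 379 and 380, kept their sign and moved by less than 1.5 times when any 1 array of the line was left out, a setting chosen after seeing the data. Across lines the SD of the median difference was 0.32 for tomato minus standard, 0.20 for ethanol minus standard and 0.47 for tomato minus ethanol. The medians over the 48 subunit genes of the differences fitted over all lines were -0.05, -0.08 and 0.03. The part of muscle content in these shifts was not tested.

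For the L paralogs, 1 array could likewise decide a difference within a line. Ethanol minus standard in line 380 had a median of 0.36 over the L paralogs (13 of 18 higher), but of -0.076 (6 of 18 higher) without array 1 on standard medium, and the testis index was 9.68 on ethanol medium, against 9.39 with that array and 9.77 without it on standard medium. Over the subunit genes the same comparison gave -0.43 (1 of 48 higher), -0.75 without standard array 1 and -0.12 without standard array 2. In line 859 ethanol minus standard gave -0.36 over the L paralogs (0 of 18 higher) and -0.44 to -0.28 when 1 array was left out, with testis indices of 10.31 and 10.56. In line 379 tomato minus standard gave -0.86 over the L paralogs (0 of 18 higher), and -0.93 to -0.65 when 1 array was left out.

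With the muscle index as a covariate in a fit on single arrays, tomato minus standard gained calls. Of the 48 subunit genes, 22 were called, all lower on tomato medium, against 6.35% of all tested probe sets called lower and 12.3% called in either direction. They were 5 of 27 in complex I, UQCR-14, 6 of 7 in complex IV and all 10 of complex V, with ATPsynB at -0.24 ± 0.05, ND-SGDH at -0.20 ± 0.04 and ATPsynCF6 at -0.20 ± 0.05 (SE; adjusted p = 0.00227, 0.00464 and 0.00647). The median over the subunit genes was -0.13, and 0 of 18 L paralogs were called. The muscle index comes from the same arrays and averaged 12.98 on tomato and 12.82 on standard medium. The covariate thus shifts this difference between media, and the 22 calls are of the shifted difference. This fit, which treats arrays of a combination as independent, was chosen after seeing the data. The same fit without the covariate called 0 of 66 in each comparison of media, against 6.08% of all tested probe sets for tomato minus standard, 0.0355% for ethanol minus standard and 0.178% for tomato minus ethanol. Title spelling moves with medium, and in the arrays with a space alone, 5 of which are tomato arrays, the same covariate left 0 of 66 called in this comparison, against 0.0622%, with a median of -0.09.

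The other comparisons gained fewer calls from the covariates. With the muscle index over all arrays, ethanol minus standard had 0 of 66 called, against 0.826%, and tomato minus ethanol had ND-SGDH alone, against 0.275%. In the arrays with a space, ethanol minus standard had 9 called, against 25.5%, among them COX6CL and ATPsynGL at 0.33 and 0.35 and COX7AL2 and ATPsynB at -0.22 and -0.18. Tomato minus ethanol had 6 there, all lower on tomato medium, against 28.2%. With the testis index, tomato minus standard had COX4L at 0.14 ± 0.04, COX5BL at 0.11 ± 0.04 and ATPsynGL at 0.20 ± 0.06 (SE), against 32.1%, and tomato minus ethanol had COX4L and COX5BL, against 11.8%. Ethanol minus standard had 0 of 66 with the testis index, against 0.702%.

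The test of whether lines responded differently to the media called 0 of 66, against 0.0% of all tested probe sets, and 26 of 66 had an unadjusted p under 0.05, 13 of them L paralogs, against 12.9% of all. The smallest p were those of ND-B8, ATPsynGL, COX4L, COX6AL, COX5BL and UQCR-14L, with adjusted p between 0.279 and 0.305. With title spelling as a block 7 were called, against 16.3% of all tested probe sets: ND-B8 and the L paralogs ND-20L, COX4L, COX5BL, ATPsynCF6L, ATPsynGL and ATPsynepsilonL. Their adjusted p ran from 0.0254 to 0.048.

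Other genes of mitochondrial energy metabolism were read from 3 lists. Of 19 tested genes of the respiratory chain with other names, 16 differed between lines and line 380 was lowest in 15, against 61.8% and 23.9% of all tested probe sets, with a median of -0.44 against the other lines. RFeSP, the Rieske iron-sulfur protein of complex III, was lower by 0.77 in log2 (adjusted p = 5.92e-06) and cype, a small subunit of complex IV, by 0.53 (0.000179). Surf1, which helps to assemble complex IV, had its lowest mean in line 786 and its highest in line 379 (3.16e-06). Of 14 tested genes of the TCA cycle and pyruvate dehydrogenase 10 differed and line 380 was lowest in 9, against the same 61.8% and 23.9%. Idh3g, a subunit of isocitrate dehydrogenase, was lower by 1.07 (1.88e-06), Fum3, a fumarase, was lowest in line 362 (0.000116), and ScsbetaG, a subunit of succinyl-CoA synthetase, was highest in line 380, by 0.74 (1.55e-08).

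Of 9 tested regulators of mitochondrial gene expression 7 differed between lines, against 61.8% of all tested probe sets. Line 380 was lowest in 0 and highest in 6, where it was highest in 29.8% of all, with a median of 0.35 against the other lines on the deposited scale. They include mTTF, a transcription termination factor (higher by 0.35, adjusted p = 8.62e-07), TFAM, which packages mitochondrial DNA (0.34, 0.000306), and bsf, which binds mitochondrial RNA (0.37, 0.000672). In media, 0 genes of the 3 lists were called in any comparison. The smallest p were those of PolG1, the mitochondrial DNA polymerase, at -0.60 ± 0.18 for tomato minus standard (SE; adjusted p = 0.0932), and ScsbetaG at 0.28 ± 0.09 (0.0952). All 9 regulators had lower means on tomato than on standard medium, none of them passing the test. The others named by smallest p were sun, Ant2 and sesB of the respiratory chain, Fum2 and Idh of the TCA cycle, and mtTFB2 and PolrMT, with adjusted p of at least 0.174 in every comparison of media.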

How the data were processed

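Whole-fly RNA was hybridised to 48 Affymetrix arrays, and the deposited value tables hold a signal intensity per probe set that the authors computed with MAS5, per the submitters' processing notes. The 2% trimmed mean was 500.0 on every array. Signals were set to a floor of 1, taken to log2 and not scaled further, so these log2 values keep the deposited scaling. Of the non-control probe sets, the 60% with the highest mean log2 signal (11261) were tested. Genes were named through the platform annotation, with symbols updated by gene ID.

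Lines, and line by medium, were tested on single arrays with limma (version 3.58.1, R 4.3.3). Media were compared on the 24 means of 2 arrays, with line as a block. Their error is the spread of these means left after line and medium, which includes how far lines differ in their response. Adjusted p-values are Benjamini-Hochberg over all 11261, called under 0.05. The number of arrays limits the precision. The fits were tested on simulated data with noise drawn separately for each probe set and array. Shifts shared by many genes of an array, as seen here, were not simulated, so their effect on the fits was not tested. Members and gene lists were chosen with earlier results of these data known. Named were the brightest subunit gene of each complex, the 10 called subunit genes with the widest range of line means, all L paralogs, and the genes of smallest p in each comparison of media and each list. Alternatives covered scaling, filter, floor, title spelling, array number, eggshell index and each array. The muscle and testis covariates, single-array fits, and fits without line 380 or the arrays of low muscle index, and differences within a line without 1 array, were chosen after seeing the data. Same-numbered arrays did not deviate together (correlations of -0.563 to 0.634 by line), so array numbers do not pair arrays.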

Additional observations from a re-analysis of the deposited data

Results flagged for a closer look

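In 4 of 57 sets of 8 line means or line differences, the lowest value stood further from the rest than the critical value of Dixon's test for 8 values allows. Chance gives about 1 in 20 such sets, so a few of 57 are expected. The sets share arrays and are not independent. Line 380 was the low one in all 4, as it was in 47 of 48 subunit genes and 14 of 18 L paralogs. The gap to the next line, as a share of the whole range, was 0.704 for COX7AL2, 0.633 for its relative COX7AL, 0.632 for the complex I subunit ND-B16.6 and 0.635 for ATPsynbetaL. ATPsynbetaL is faint and was not called between lines (adjusted p = 0.433 by limma).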

How the results depend on the processing

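The count of genes called between lines was 62 of 66, against 61.8% of all tested probe sets. It was 54 to 63 under the alternatives for scaling, filter, floor, title spelling, eggshell index and probe set choice. With the testis index as a covariate it was 62, against 89.3%, and with 1 array left out it was 44 to 63. It was 44 without array 1 of line 380 on ethanol medium, and 36 with the muscle index as a covariate, against 66.1%. Without the 4 arrays of muscle index below 12 it was 27, against 46.5%, and without line 380 it was 19, against 42.5%. The cause was not tested. The count of 0 in the line by medium test became 7 with title spelling as a block, against 16.3%. For tomato minus standard, 0 became 22 with the muscle index as a covariate, against 12.3%. With the testis index as a covariate it became 3 (COX4L, COX5BL and ATPsynGL), against 32.1%. For tomato minus ethanol the count became 1 with the muscle index, against 0.275%, and 2 with the testis index, against 11.8%. With the muscle index in the arrays whose titles have a space it became 6, against 28.2%. For ethanol minus standard it became 9 in that last setting, where 25.5% of all probe sets were called. No other alternative, and no single array or line left out, gave a call in a comparison of media. ATPsynGL, tomato minus standard, turned to -0.10 in the arrays with a space, -0.080 without the arrays of low eggshell index and -0.026 with the muscle index in the arrays with a space, and ND-B14.5A, tomato minus ethanol, to -0.011 in the arrays with a space.

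With 1 array left out, the subunit median ran from -0.10 to 0.00 for tomato minus standard, -0.13 to -0.02 for ethanol minus standard and -0.02 to 0.08 for tomato minus ethanol. With array number as a replicate block, 63 genes were called between lines and 0 in media or in the line by medium test, with medians of -0.17, -0.08 and -0.10. Faint probe sets such as UQCR-11, ND-51L1 and ATPsynepsilonL limit what can be said of those genes.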
